A study of Mus musculus with 28 samples.

Results

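The 9 genes described here, Cpt1a, Cpt2, Acsbg1, Acadvl, Acadl, Acadm, Hadha, Hadhb and Oxct1, encode enzymes of mitochondrial fatty acid oxidation, fatty acid activation and ketone body use. They were taken by symbol from 53342 Ensembl gene identifiers in 3 tables of read counts from mouse cerebral cortex, and all 9 were abundant enough to be tested in each of 8 comparisons. Bulk RNA-Seq was done at postnatal day 24 (P24) and at P17, with 4 cKO and 4 Ctrl mice at each age. Translating ribosome affinity purification (TRAP-Seq) was done at P24 with 3 cKO and 3 Ctrl mice, and each of these mice gave an IP library, from ribosomes carrying a tag made in astrocytes, and an Input library, from the same cortex before purification.

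The cKO mice carried the astrocyte driver mGFAP-Cre, a Cre recombinase under a mouse GFAP promoter, together with floxed copies of the targeted gene on both chromosomes (loxP/loxP), so that this gene was deleted in astrocytes. The Ctrl mice of the bulk experiments were littermates matched for sex with loxP/loxP or loxP/+ alleles. The TRAP-Seq mice of both genotypes also carried an EGFP/Rpl10a ribosomal tag that is made only where mGFAP-Cre has acted. The IP therefore reads cells in which a GFAP promoter has driven Cre, and a Cre-negative Ctrl mouse would have no tagged ribosomes. The authors label the TRAP-Seq Ctrl mice f/f or f/+, that is loxP/loxP or loxP/+. Whether these Ctrl mice carried mGFAP-Cre is not stated for them separately. The P24 mice were taken before the age at which cKO mice show paralysis. Each library came from the RNA of 1 mouse.

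Long-chain fatty acids are activated to acyl-CoA in the cytosol, handed to carnitine by CPT1 at the outer mitochondrial membrane, carried across the inner membrane and returned to CoA by CPT2. In the matrix they are shortened by a repeating cycle of acyl-CoA dehydrogenases, which differ in the chain length they prefer, and of the mitochondrial trifunctional protein, a complex of alpha and beta subunits encoded by Hadha and Hadhb. Astrocytes are known as the main site of fatty acid oxidation in the brain, whereas ketone bodies, whose use starts with the CoA transferase encoded by Oxct1, are burned by neurons as well as glia.

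The DNA around the start sites is shown for the 3 loci on which the results below turn. Hadha (chr5:30118304-30155162, minus strand) and Hadhb (chr5:30155248-30184593, plus strand) are neighbours in head-to-head orientation in GRCm38. Their RefSeq starts lie 273 bases apart, and 85 bases lie between the outermost starts that GENCODE gives. The stretch between them holds 69.4% G and C and is printed on the plus strand with its matches to GGGCGG, the core of Sp1-type GC boxes, in capitals. For Acsbg1 (chr9:54604877-54661870, minus strand), the member most enriched in the IP of Ctrl mice, and Oxct1 (chr15:4026383-4155344, plus strand), the least enriched, the 100 bases before the outermost start in either annotation (the RefSeq start for Acsbg1, the GENCODE start for Oxct1) are printed 5′ to 3′ on the strand of the gene, with matches to CCAAT on either strand in capitals.
Hadha to Hadhb, chr5:30155163-30155247: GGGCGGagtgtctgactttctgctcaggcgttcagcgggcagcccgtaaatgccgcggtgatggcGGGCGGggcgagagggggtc
Acsbg1, chr9:54661886-54661985: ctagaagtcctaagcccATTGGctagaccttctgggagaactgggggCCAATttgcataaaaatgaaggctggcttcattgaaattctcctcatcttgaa
Oxct1, chr15:4026283-4026382: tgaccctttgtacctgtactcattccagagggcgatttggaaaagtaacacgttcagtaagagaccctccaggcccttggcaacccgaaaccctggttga

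The stretch between Hadha and Hadhb held 2 matches to GGGCGG, the Acsbg1 stretch held 2 matches to CCAAT and the Oxct1 stretch held neither motif. In RefSeq windows of 300 bases, from 250 before to 50 after each start, GGGCGG was found on either strand in 35.7% of 32851 windows and in those of 5 members (Cpt1a, Cpt2, Acadl, Hadha and Hadhb), and CCAAT in 37.4% of windows and in those of 2 members (Cpt1a and Acsbg1). The windows of Hadha and Hadhb overlap. The PPAR-type direct repeat of AGGTCA with 1 base between was found in 0.0396% of windows, the estrogen-related receptor type TCAAGGTCA in 0.423% and the NRF1 palindrome in 0.971%, and each was found in 0 of the 9 member windows. A match describes the letters only, and none of these motifs was tested for binding.

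Counts on genes ranged from 8855488 to 14575306 per bulk library and from 18433087 to 27242445 per TRAP-Seq library, so that 3 counts corresponded to between 0.110 and 0.339 CPM (counts scaled to a common library size), a limit that covers counting error only. Levels are given as CPM scaled by the TMM factors of edgeR. In Ctrl mice all 11 astrocyte markers were higher in IP than in Input, and their summed level was 12945 to 17053 CPM in IP and 1194 to 1428 CPM in Input, whereas the summed level of 10 neuronal markers was 2606 to 3098 CPM in IP and 6132 to 6979 CPM in Input. Leaving out the Input library of cKO mouse 1 changed calls in comparisons that use the Input, and the values of these comparisons without it are given beside them. Exons of Acadvl share 42.9% of their bases with Dvl2 on the opposite strand, those of Oxct1 12.6% with the transcript BC037032 and those of Hadha 0.859% with Garem2, and the strand setting of the counting is not given in the sources used here, so reads in these stretches may have been counted for either gene or for none.

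The comparison of IP with Input asks how strongly a transcript is held on tagged astrocyte ribosomes relative to the whole cortex. In whole tissue, fewer cells of a type and less RNA per cell cannot be told apart. In Ctrl mice, 8 of the 9 transcripts were higher in IP, from 2.45-fold for Hadha to 10.7-fold for Acsbg1, and Oxct1 was not distinguishable between the fractions. Across all 24385 genes tested, 35.3% were higher in IP, and 71.0% differed in either direction. The median log2 fold change of the 9 genes was 2.38, beside -0.03 over all genes tested. The 8 that rose did so with adjusted p between 1.30e-09 and 7.22e-07 (edgeR quasi-likelihood test), and in each of them every IP library lay above every Input library, which was the case for 37.1% of all genes.

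Acsbg1 encodes an acyl-CoA synthetase that activates long-chain fatty acids. Its Input levels in Ctrl mice were 65.8, 71.9 and 59.0 CPM, and its IP levels in the same mice were 662, 677 and 778 CPM. Within each mouse the IP level exceeded the Input level by 10.1-, 9.41- and 13.2-fold, the widest separation of fractions among the 9 genes in all 3 mice. The fitted log2 fold change was 3.42 ± 0.12 (SE, n = 3, edgeR adjusted p = 1.30e-09).

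Both carnitine transferases were also enriched. Cpt1a (chr19:3322334-3385733, plus strand), whose product controls the entry of fatty acids into mitochondria, averaged 7.47 ± 0.30 CPM in Input and 53.7 ± 9.5 CPM in IP (SD, n = 3), a 7.14-fold difference. Cpt2 (chr4:107903981-107923610, minus strand), the inner membrane enzyme that returns the acyl group to CoA, rose from 4.04 ± 0.57 to 25.7 ± 3.1 CPM, a 6.29-fold difference. The lowest IP library was far above the highest Input library for both genes.

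Among the acyl-CoA dehydrogenases, Acadl (chr1:66830839-66863277, minus strand), which prefers long chains, was 4.83-fold higher in IP, and Acadm (chr3:153922357-153944632, minus strand), which prefers medium chains, was 5.20-fold higher. Acadvl (chr11:70010183-70015411, minus strand), the enzyme for very long chains, was 2.90-fold higher, from 29.2 ± 4.7 CPM in Input to 85.5 ± 2.8 CPM in IP. Dvl2, with which Acadvl shares exonic bases, was 2.10-fold higher in the same comparison, and what part of the Acadvl counts the shared stretch holds was not tested.

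The subunits of the trifunctional protein differed in their enrichment. Hadhb, the beta subunit with the thiolase activity, had 22.9, 20.0 and 18.4 CPM in the Input and 144, 151 and 146 CPM in the IP of Ctrl mice, a 7.13-fold difference. Hadha, the alpha subunit with the hydratase and dehydrogenase activities, had 42.6, 40.3 and 35.3 CPM in Input and 96.1, 91.4 and 105 CPM in IP, a 2.45-fold difference. Per kb of exon, Hadha had 4.51 ± 0.43 and Hadhb 3.10 ± 0.35 CPM in the Ctrl Input, and 11.2 ± 0.77 and 22.3 ± 0.57 CPM in the Ctrl IP, so that their order was opposite in the fractions. The ratio of Hadhb to Hadha CPM, in which length cancels between fractions, was 0.518 ± 0.020 in Input and 1.52 ± 0.13 in IP of Ctrl mice and 0.806 ± 0.217 and 1.80 ± 0.26 in those of cKO mice (SD, n = 3). The 3 cKO Input libraries had ratios of 1.053, 0.643 and 0.723, the first in mouse 1. This ratio was chosen after its values were seen and is given without a test.

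Oxct1 encodes succinyl-CoA:3-ketoacid CoA transferase, which starts the oxidation of ketone bodies. Its levels in Ctrl mice were 296, 288 and 345 CPM in Input and 356, 361 and 337 CPM in IP. The fractions overlapped, and the IP level was above the Input level in mice 1 and 2 and slightly below it in mouse 3. The log2 fold change was 0.17 ± 0.09 (edgeR adjusted p = 0.118), and it passed the threshold when libraries were scaled by their size alone (adjusted p = 0.0417) or when the Input library of Ctrl mouse 3 was left out (adjusted p = 0.0254).

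In cKO mice all 9 transcripts were higher in IP than in Input, beside 27.8% of the 24011 genes tested (56.3% differed in either direction), with a median log2 fold change of 1.88 for the 9 genes and -0.02 for all genes. In all 9 every IP library lay above every Input library, as for 32.1% of all genes. The fitted enrichment was 5.66-fold for Acsbg1, 5.48-fold for Hadhb and 4.63-fold for Cpt1a, and that of Acsbg1 and Hadhb lay within their errors of each other (log2 2.50 ± 0.20 and 2.45 ± 0.15). Within single mice Cpt1a was the most enriched in mouse 1 (7.05-fold, Acsbg1 6.17-fold), Hadhb in mouse 2 (5.50-fold, Acsbg1 4.38-fold) and Acsbg1 in mouse 3 (6.94-fold). Acadm was 3.68-fold, Acadl 3.60-fold, Hadha 2.40-fold and Acadvl 2.33-fold higher. Without the Input library of cKO mouse 1 the median log2 fold change of the 9 genes was 2.00, Acadl was 4.72-fold, Cpt1a 3.87-fold, Hadhb 5.82-fold and Acsbg1 5.28-fold higher. Oxct1 was 1.34-fold higher with 491, 387 and 453 CPM in IP and 334, 305 and 348 CPM in Input, at an adjusted p of 0.0457 by edgeR, and with the mouse as a block, which fits IP and Input of the same mouse as a pair, its adjusted p was 0.0962. Of the 7 alternatives that kept all libraries, the block among them, the Oxct1 call held in 3. It was lost with the likelihood ratio test and without a filter on low counts, which called 8 of the 9 genes. The Oxct1 call also ended without the Input library of cKO mouse 2 or 3 (adjusted p = 0.153 and 0.0871) and without the IP library of cKO mouse 1 or 3 (adjusted p = 0.130 and 0.110).

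**Figure D1:**
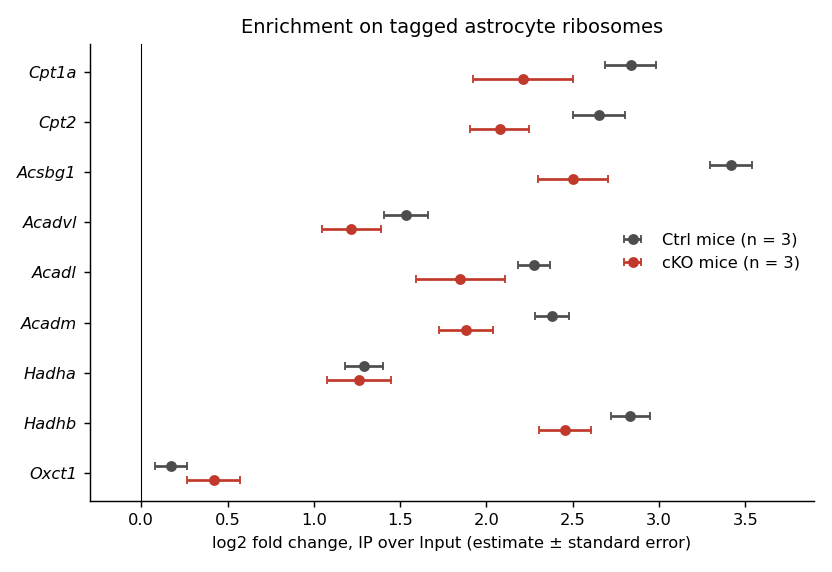
Log2 fold change of IP over Input for each of the 9 genes (horizontal axis, point with standard error) in Ctrl mice (grey, n = 3) and cKO mice (red, n = 3), fitted with edgeR. Acsbg1 lies at 3.42 in Ctrl and 2.50 in cKO mice, where Hadhb lies beside it at 2.45, and Oxct1 lies nearest to 0.

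The order of the 9 genes also differed between fractions when CPM were divided by exonic length in kilobases, taken over all annotated isoforms. In the IP of Ctrl mice, Acsbg1 was highest with 196 ± 17 CPM per kb, followed by Oxct1 with 94.9 ± 3.4 and Acadl with 89.9 ± 1.9, whose ranges overlapped. Acadvl followed with 31.8 ± 1.0, then Hadhb with 22.3 ± 0.57 and Acadm with 22.1 ± 0.17, whose ranges overlapped, Hadha with 11.2 ± 0.77 and Cpt2 with 10.8 ± 1.3, whose ranges overlapped as well, and Cpt1a with 7.03 ± 1.24. In the Input of the same mice Oxct1 led with 83.7 ± 8.4 CPM per kb, ahead of Acadl with 18.5 ± 1.4 and Acsbg1 with 18.2 ± 1.8, whose ranges overlapped, and Cpt1a was lowest with 0.977 ± 0.039. In the P24 bulk Ctrl libraries Oxct1 had 65.8 ± 2.9 CPM per kb, Acsbg1 25.0 ± 1.3 and Acadl 15.2 ± 1.6 (n = 4), and the remaining 6 genes lay between 1.64 and 6.31 on average. Bulk and TRAP-Seq libraries were made by different protocols and scaled in separate tables, so their levels cannot be set against each other: the summed astrocyte markers alone were 4717 to 5301 CPM in the P24 bulk Ctrl libraries and 1194 to 1428 CPM in the Ctrl Input libraries.

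**Figure D2:**
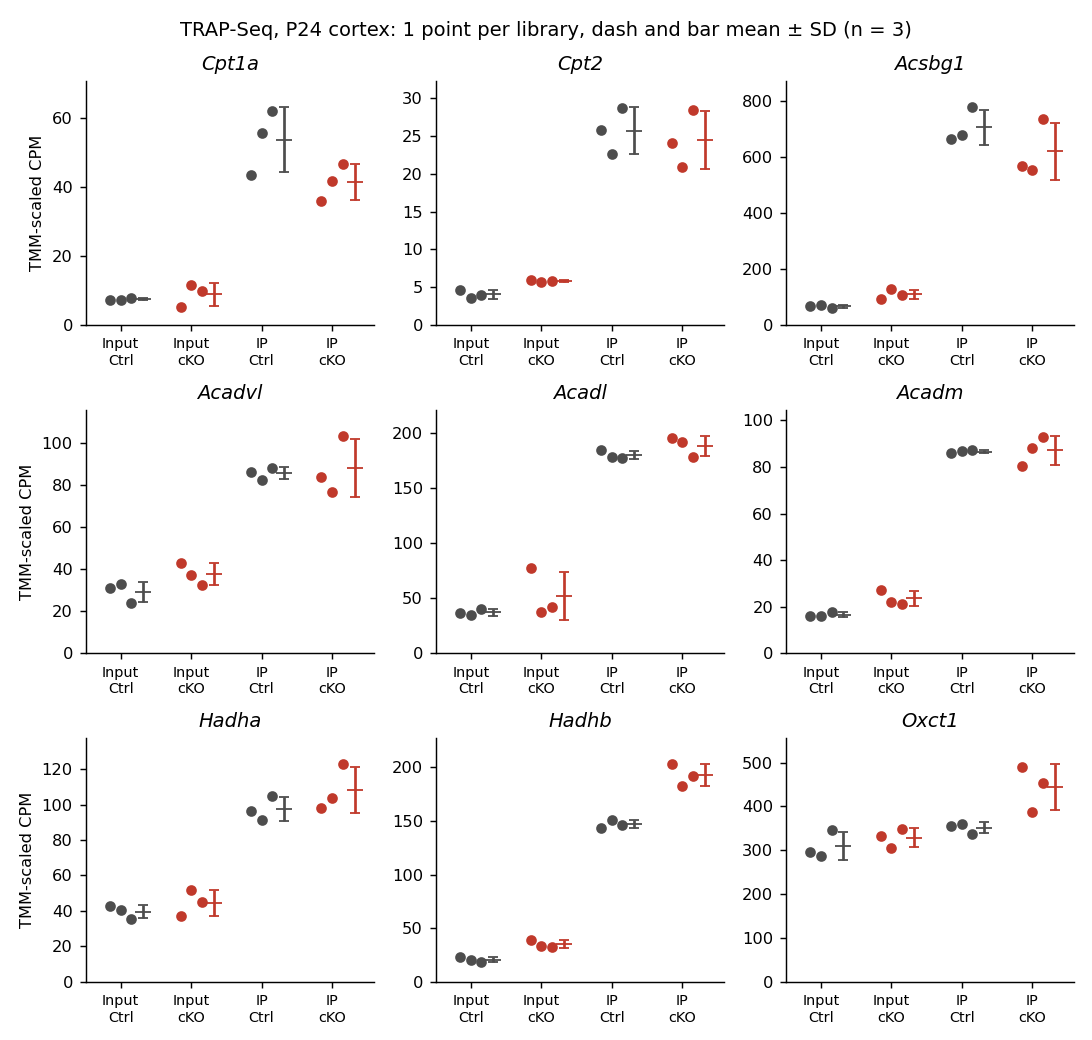
TMM-scaled CPM (vertical axis, starting at 0) of each gene in the 12 TRAP-Seq libraries, with 1 point per library and the mean ± SD of the 3 libraries beside them, for Input and IP of Ctrl (grey) and cKO (red) mice. For every gene but Oxct1 all IP points lie above all Ctrl Input points, and for Hadhb and Oxct1 the 3 IP cKO points lie above the 3 IP Ctrl points.

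The comparison of IP libraries between genotypes asks which transcripts on astrocyte ribosomes differed after the deletion in astrocytes. Hadhb and Oxct1 were higher in cKO mice, and the other 7 did not pass the threshold, in a comparison in which 20.0% of the 23864 genes tested passed it in either direction and 11.6% were higher. The median log2 fold change of the 9 genes was 0.05, beside -0.01 over all genes.

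Hadhb had 144, 151 and 146 CPM in the IP of Ctrl mice and 203, 183 and 192 CPM in the IP of cKO mice. Every cKO library lay above every Ctrl library, which was the case for 19.0% of all genes. The log2 fold change was 0.40 ± 0.09, a 1.32-fold difference (edgeR adjusted p = 0.0108). It did not pass the threshold when libraries were scaled by size alone (log2 fold change 0.29, adjusted p = 0.0599), in a single fit of all 12 TRAP-Seq libraries (adjusted p = 0.0716) or without the IP library of Ctrl mouse 1 (adjusted p = 0.0561), and it passed in the other 10 alternatives. Hadha, its partner subunit, had 97.4 ± 6.7 CPM in Ctrl and 108 ± 13 CPM in cKO, with overlapping libraries and a log2 fold change of 0.16 ± 0.11 (adjusted p = 0.354).

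Oxct1 had 356, 361 and 337 CPM in the IP of Ctrl mice and 491, 387 and 453 CPM in the IP of cKO mice, without overlap. The log2 fold change was 0.35 ± 0.11, a 1.27-fold difference (edgeR adjusted p = 0.0428). This call rested on the full set of libraries: it was lost in 5 of the 6 fits that left out 1 library (adjusted p between 0.0774 and 0.126), and kept only without the IP library of cKO mouse 2, which held the lowest cKO value. It was lost as well with scaling by library size (adjusted p = 0.174) and in the single fit of all TRAP-Seq libraries (adjusted p = 0.128). BC037032, which shares exonic bases with Oxct1, differed by 0.23 ± 0.13 on the log2 scale (edgeR adjusted p = 0.258).

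Cpt1a had 43.4, 55.8 and 62.0 CPM in the IP of Ctrl mice and 36.0, 41.8 and 46.6 CPM in the IP of cKO mice. The groups overlapped through the lowest Ctrl library, and the log2 fold change was -0.36 ± 0.14 (edgeR adjusted p = 0.0967). It was called lower in cKO with scaling by library size (adjusted p = 0.0282), without a filter on low counts (adjusted p = 0.0313) and without the IP library of Ctrl mouse 1 (adjusted p = 0.0339).

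The remaining 5 genes differed by less than the spread between mice. Acsbg1 had 706 ± 63 CPM in Ctrl and 619.5 ± 101 CPM in cKO (log2 fold change -0.18 ± 0.13). Cpt2, Acadl, Acadm and Acadvl had log2 fold changes of -0.06, 0.07, 0.02 and 0.05, each smaller than its standard error. Scaling by library size alone shifted the log2 fold changes of all genes by a median of -0.11, and with it 2002 genes were called higher and 3529 lower in place of 2772 and 2010. Under that scaling Acadl, Acadm and Acadvl had values of -0.04, -0.10 and -0.06. Among the cell type markers, the summed astrocyte level was 12945 to 17053 CPM in IP Ctrl and 12349 to 16937 CPM in IP cKO, with 1 of 11 markers called higher and 3 lower. The summed microglial level was 129 to 152 CPM in Ctrl and 140 to 262 CPM in cKO, with 2 of 9 markers higher and 0 lower, and the summed neuronal level 2606 to 3098 CPM in Ctrl and 2595 to 2685 CPM in cKO, with 0 of 10 markers higher and 2 lower. Their part in the results was not tested.

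**Figure D3:**
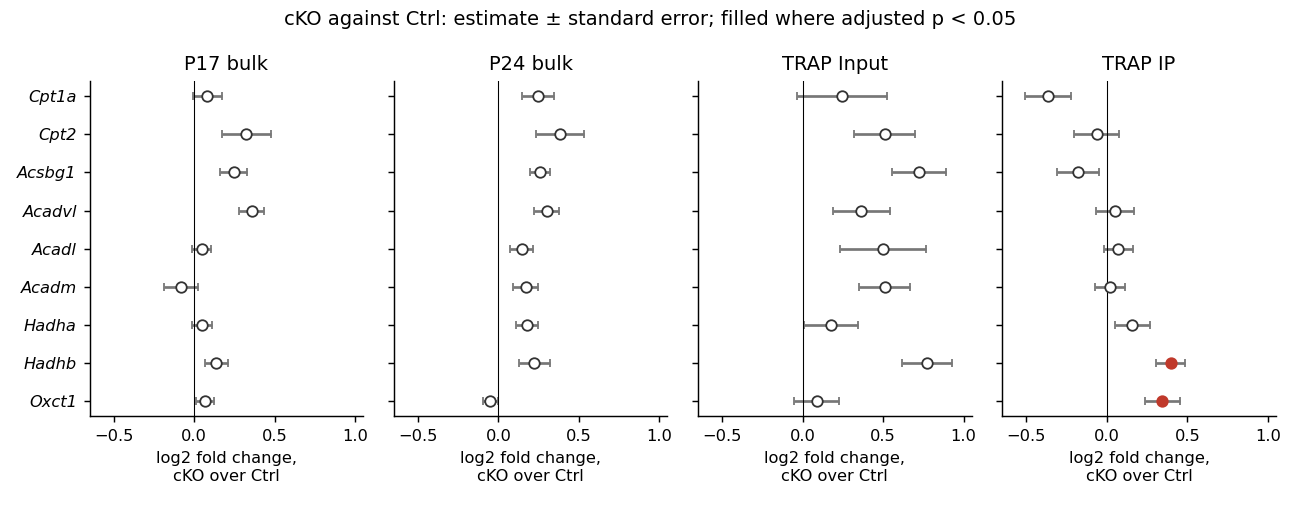
Log2 fold change of cKO over Ctrl for each gene (horizontal axis, point with standard error) in P17 bulk, P24 bulk, TRAP Input and TRAP IP libraries, fitted with edgeR in separate fits. Filled points have an adjusted p under 0.05 and are Hadhb and Oxct1 in the IP, while in the Input all 9 estimates lie above 0 with wide errors.

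In the Input libraries, which hold the RNA of the whole cortex of the same mice, none of the 9 genes passed the threshold in the comparison of cKO with Ctrl, beside 0.109% of 23828 genes tested. All 9 estimates were positive, with a median log2 fold change of 0.50 beside 0.01 over all genes, and 4 genes had an unadjusted p under 0.05 (Cpt2, Acadm, Hadhb and Acsbg1), beside 4.03% of all genes. The median was that of Acadl, and without the Input library of cKO mouse 1 it was 0.39 over the 9 genes and 0.098 for Acadl, with all 9 estimates still positive. The same 4 genes had every cKO library above every Ctrl library, beside 6.59% of all genes. DESeq2 called 2 of them, Hadhb and Acsbg1 (adjusted p = 0.0112 and 0.0327), and the likelihood ratio test and the single fit of all TRAP-Seq libraries called Hadhb.

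Hadhb had 22.9, 20.0 and 18.4 CPM in the Input of Ctrl mice and 39.0, 33.3 and 32.4 CPM in the Input of cKO mice, a 1.71-fold difference (log2 fold change 0.77 ± 0.16, edgeR adjusted p = 0.2503). Acsbg1 had 65.8, 71.9 and 59.0 CPM in Ctrl and 92.0, 127 and 106 CPM in cKO, a 1.65-fold difference (log2 fold change 0.72 ± 0.17, adjusted p = 0.378). Without the Input library of cKO mouse 1, Acsbg1 passed the threshold (edgeR adjusted p = 0.0229) and Hadhb, at 1.61-fold, did not (adjusted p = 0.0557). In that fit 112 genes in place of 26 were called. That library also set the spread of other members: Acadl had 77.5 CPM in it and 37.5 and 41.7 CPM in the other cKO Input libraries, and Cpt1a had 5.12 CPM in it and 11.5 and 9.89 CPM in the others.

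Cell type markers were read in the same Input comparison, and their lists differed. The summed level of the astrocyte markers was 1194 to 1428 CPM in the Ctrl and 1924 to 2428 CPM in the cKO Input libraries. Their median log2 fold change was 0.47. In 6 of the 11 markers every cKO library lay above every Ctrl library, as for 6.59% of all genes. All 11 were tested, and 1 passed the threshold (Aldoc, log2 fold change 0.92, edgeR adjusted p = 0.0485), beside 0.109% of all genes. The summed microglial level was 218 to 244 CPM in Ctrl and 227 to 311 CPM in cKO, with a median log2 fold change of 0.48 over 9 markers, of which 2 did not overlap between groups and 0 passed the threshold by edgeR (3 at an unadjusted p under 0.05, 0 by DESeq2). The red blood cell markers summed to 135 to 212 CPM in Ctrl and 110 to 610 CPM in cKO, with a median of 0.87 over 3 markers, of which 0 passed by edgeR (0 at an unadjusted p under 0.05, 0 by DESeq2). The microglial and the red blood cell sums thus overlapped between genotypes. The medians of the other lists were 0.00048 for neurons, -0.09 for oligodendrocyte precursors, 0.17 for endothelial and mural cells and 0.19 for oligodendrocytes. The part of these markers in the Input values of the 9 genes was not tested.

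Whether the effect of genotype differed between the fractions was tested as an interaction over all 12 TRAP-Seq libraries, as the cKO-over-Ctrl log2 fold change in IP minus that in Input. None of the 9 genes passed the threshold, beside 0.0582% of 25768 genes tested, and 4 had an unadjusted p under 0.05 (Cpt2, Acadm, Hadhb and Acsbg1), beside 8.74% of all genes. The difference was negative for all but Oxct1, with a median of -0.43 for the 9 genes, -0.03 for all genes and -0.82 for the 11 astrocyte markers. Without the Input library of cKO mouse 1 the median of the 9 genes was -0.30 and the value of Acadl, which had set the median, was -0.037. The most negative was that of Acsbg1 at -0.91 ± 0.22 (edgeR adjusted p = 0.154), whose enrichment was 10.7-fold in Ctrl and 5.66-fold in cKO mice. Within single mice its IP level exceeded its Input level by 6.17-, 4.38- and 6.94-fold in cKO mice, all below the 9.41-fold of the lowest Ctrl mouse. Acsbg1 passed the threshold by DESeq2 (adjusted p = 0.0151), by the likelihood ratio test (0.0299), without a filter on low counts (0.0476) and without the Input library of cKO mouse 1 (0.0221), and did not with the mouse as a block (0.292), which called 6 genes in place of 15. For Hadhb the log2 fold change of cKO over Ctrl was 0.40 in IP and 0.77 in Input, and for Oxct1 it was 0.35 in IP and 0.09 in Input, with adjusted p of 0.561 and 0.767 for the difference.

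In bulk cortex at P24, none of the 9 genes passed the threshold between cKO and Ctrl mice, beside 1.72% of 22495 genes tested. Of the 9 estimates 8 were positive, with a median log2 fold change of 0.22 beside 0.00054 over all genes, and 6 genes had an unadjusted p under 0.05 (Cpt1a, Cpt2, Acadvl, Hadha, Hadhb and Acsbg1), beside 13.1% of all genes. DESeq2 and the fit without a filter called Acsbg1, and the likelihood ratio test called Acadvl.

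Acsbg1 had 96.6, 87.4, 85.8 and 89.8 CPM in P24 Ctrl mice and 114, 112, 106 and 98.3 CPM in cKO mice. It was the only member whose groups did not overlap, with all cKO libraries above all Ctrl libraries as for 4.25% of all genes. The log2 fold change was 0.26 ± 0.06, a 1.20-fold difference (edgeR adjusted p = 0.0596; DESeq2 adjusted p = 0.00606). Without cKO mouse 4, which had the lowest cKO value, the edgeR adjusted p was 0.0466.

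Acadvl had 16.5, 15.5, 16.5 and 19.4 CPM in P24 Ctrl mice and 22.2, 19.3, 21.0 and 21.0 CPM in cKO mice, and the highest Ctrl library lay just above the lowest cKO library. The log2 fold change was 0.30 ± 0.08 (edgeR adjusted p = 0.0938), and without Ctrl mouse 4 the adjusted p was 0.0328. For Dvl2 the difference between genotypes was 0.05 ± 0.09 on the log2 scale. Oxct1 had 243 ± 11 CPM in Ctrl and 235 ± 3.4 CPM in cKO and was the only member with a negative estimate, -0.05 ± 0.05 (adjusted p = 0.714). The summed astrocyte markers were 4717 to 5301 CPM in Ctrl and 4975 to 5243 CPM in cKO mice, with 3 of 11 markers called higher and 3 lower.

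At P17 none of the 9 genes passed the threshold either in the main fit, beside 0.0943% of 21201 genes tested. That fit held no replicate block. The median log2 fold change was 0.08 beside -0.0038 over all genes, 8 estimates were positive, and 2 genes, Acadvl and Acsbg1, had an unadjusted p under 0.05, beside 4.00% of all genes. Both had every cKO library above every Ctrl library, as 1.74% of all genes did. DESeq2 called 0 of the 9.

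Acadvl had 19.4, 18.6, 20.3 and 23.7 CPM in P17 Ctrl mice and 26.4, 25.9, 26.0 and 26.2 CPM in cKO mice. The cKO libraries were close to one another, and all were above the highest Ctrl library. The log2 fold change was 0.36 ± 0.08, a 1.28-fold difference (edgeR adjusted p = 0.261), and Dvl2 had 0.06 ± 0.08. Same-numbered P17 libraries deviated together, and fitted with a replicate block Acadvl passed the threshold (adjusted p = 0.0392), as did 109 genes in place of 20. The likelihood ratio test also called it (adjusted p = 0.0470).

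Acsbg1 had 102, 108, 106 and 100.08 CPM in P17 Ctrl mice and 124, 113, 145 and 111 CPM in cKO mice (log2 fold change 0.24 ± 0.08, edgeR adjusted p = 0.943). Fitted with the replicate block, its edgeR adjusted p was 0.0517, just above the threshold. The groups were apart, and most of the spread lay among the cKO mice. The summed astrocyte markers were 5488 to 5779 CPM in Ctrl and 5552 to 6128 CPM in cKO mice. Hadhb had 21.6 ± 1.1 CPM in Ctrl and 23.8 ± 1.1 CPM in cKO, with overlapping groups. The interaction of age and genotype over all 16 bulk libraries, the cKO effect at P24 minus that at P17, passed the threshold for none of the 9 genes, beside 0.0470% of 23395 genes tested, and 0 of the 9 had an unadjusted p under 0.05, beside 6.32% of all genes. DESeq2 called 0 as well. The 9 differences lay between -0.12 for Oxct1 and 0.25 for Acadm.

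**Figure D4:**
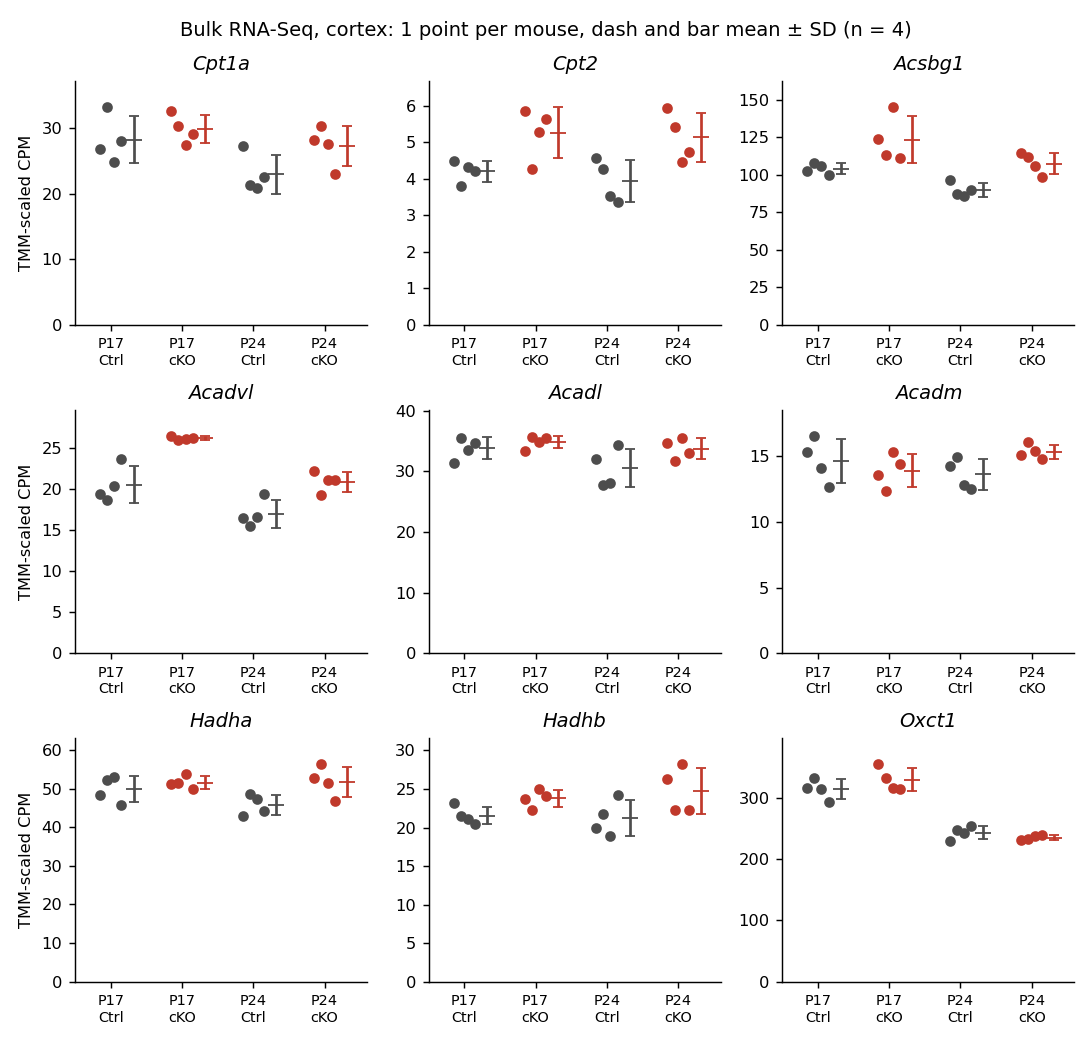
TMM-scaled CPM (vertical axis, starting at 0) of each gene in the 16 bulk libraries, with 1 point per mouse and the mean ± SD of the 4 mice beside them, at P17 and P24 in Ctrl (grey) and cKO (red) mice. Acsbg1 is apart between genotypes at both ages and Acadvl at P17, and Oxct1 overlaps at both ages.

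The other genes of the pathway were read from 6 lists. In Ctrl mice 50 of their 77 tested genes (64.9%) were higher and 15 (19.5%) lower in IP than in Input, beside 35.3% and 35.7% of all genes, and in cKO mice 45 of 75 were higher and 12 lower, beside 27.8% and 28.5%. Of 17 other enzymes of mitochondrial β-oxidation, 15 were higher in IP than in Input in Ctrl mice, 0 were lower and the median log2 fold change was 2.00. The 3 with the smallest adjusted p were Eci1 and Eci2, the isomerases for unsaturated chains, at 11.2- and 9.05-fold, and Decr1, the dienoyl-CoA reductase, at 10.5-fold. Of 12 genes of peroxisomal β-oxidation 10 were higher and 2 lower, with a median of 1.00, led by Scp2 (4.94-fold), Hsd17b4 (3.88-fold) and the half-transporter Abcd3 (3.27-fold). In cKO mice 15 of the 17 mitochondrial and 6 of the 12 peroxisomal genes were higher in IP, and 0 of either list were lower.

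The other lists were divided between the fractions. In Ctrl mice, 3 of 6 genes of the carnitine shuttle were higher and 1 lower in IP: the carnitine-acylcarnitine carrier Slc25a20 (5.17-fold) and the peroxisomal transferase Crot (4.78-fold) were higher, and Cpt1c, the CPT1 isoform of neurons, was lower at 12.2 ± 0.81 CPM in IP and 36.8 ± 7.5 CPM in Input. Of 14 acyl-CoA synthetases and fatty acid carriers 7 were higher and 4 lower, with the acyl-CoA binding protein Dbi at 21.2-fold, the fatty acid binding protein Fabp5 at 6.67-fold and the synthetase Acsf2 at 7.48-fold. Of 10 genes of ketone body synthesis, use and transport 6 were higher and 4 lower, and unlike Oxct1 the hydroxybutyrate dehydrogenase Bdh2 (11.1-fold) and the monocarboxylate transporter Slc16a1 (2.22-fold) were higher in IP. Of 18 regulators and targets of fatty acid oxidation 9 were higher and 4 lower, led by Pdk4 (15.8-fold), the lipid droplet protein Plin2 (7.72-fold) and the thioesterase Acot1 (4.85-fold).

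In the IP libraries of cKO against Ctrl mice, 11 of 76 tested list genes were higher (14.5%) and 8 lower (10.5%), shares near the 11.6% and 8.42% of all genes. Of the 17 other mitochondrial enzymes 2 were higher (11.8%) and 0 lower, the hydratase Echs1 (155 ± 2.7 to 195 ± 4.7 CPM, log2 fold change 0.34, edgeR adjusted p = 0.0189) and the short-chain dehydrogenase Hadh (123 ± 4.1 to 157 ± 8.8 CPM, 0.36, adjusted p = 0.0191), with a list median of 0.04. None of 5 tested genes of the carnitine shuttle passed by edgeR, with 0 at an unadjusted p under 0.05 and 0 by DESeq2. Of 14 synthetases and carriers 4 were higher and 1 lower, led by Fabp5 (515 ± 23 to 1017 ± 100.2 CPM), Fabp7 (303 ± 112 to 673 ± 115 CPM) and the synthetase Acsl5 (24.5 ± 2.1 to 34.9 ± 2.2 CPM). Of 10 ketone body genes 3 were higher and 2 lower: the lyase Hmgcll1 rose 2.23-fold, Slc16a1 rose 1.89-fold, and Bdh2 fell from 9.69 ± 3.56 to 3.93 ± 0.37 CPM. Of 12 peroxisomal genes 1 was higher and 0 were lower. Of 13 alternatives Echs1 and Mlycd kept their calls in 8 and Hadh in 9. Of 18 regulators and targets 1 was higher and 5 lower, including the nuclear receptor Rxra (30.9 ± 3.6 to 19.4 ± 1.6 CPM), the secreted lipase inhibitor Angptl4 (5.03 ± 1.49 to 1.78 ± 0.61 CPM) and the malonyl-CoA decarboxylase Mlycd (33.8 ± 2.5 to 24.6 ± 2.6 CPM).

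In P24 bulk cortex, 5 of 74 tested genes of the 6 lists (6.76%) passed the threshold, all higher in cKO mice, beside 1.26% of all genes. They included Fabp5 (41.7 ± 1.8 to 70.8 ± 13.6 CPM), the peroxisomal enzyme Hsd17b4 (1.28-fold) and the thioesterases Acot1 (1.47-fold) and Acot2 (1.41-fold). Of 15 alternatives Fabp5 kept its call in 15, Hsd17b4 in 9 and Acot1 and Acot2 in 7, and most of the losses were in fits without 1 library. At P17 and in the Input libraries, no gene of the 6 lists passed the threshold by edgeR. At P17 the number with an unadjusted p under 0.05 was 3 of 17 for other mitochondrial enzymes, 3 of 13 for synthetases and carriers, 2 of 12 for peroxisomal genes and 1 for each of the other lists, beside 4.00% of all genes. DESeq2 called 0 there. In the Input that number was 8 of 17 for other mitochondrial enzymes, 5 of 13 for synthetases and carriers, 3 of 12 for peroxisomal genes and 1 for each of the other lists, beside 4.03% of all genes. There DESeq2 called 1 mitochondrial enzyme, 3 synthetases and carriers and 1 ketone body gene. These Input counts are not given without the Input library of cKO mouse 1.

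**Figure D5:**
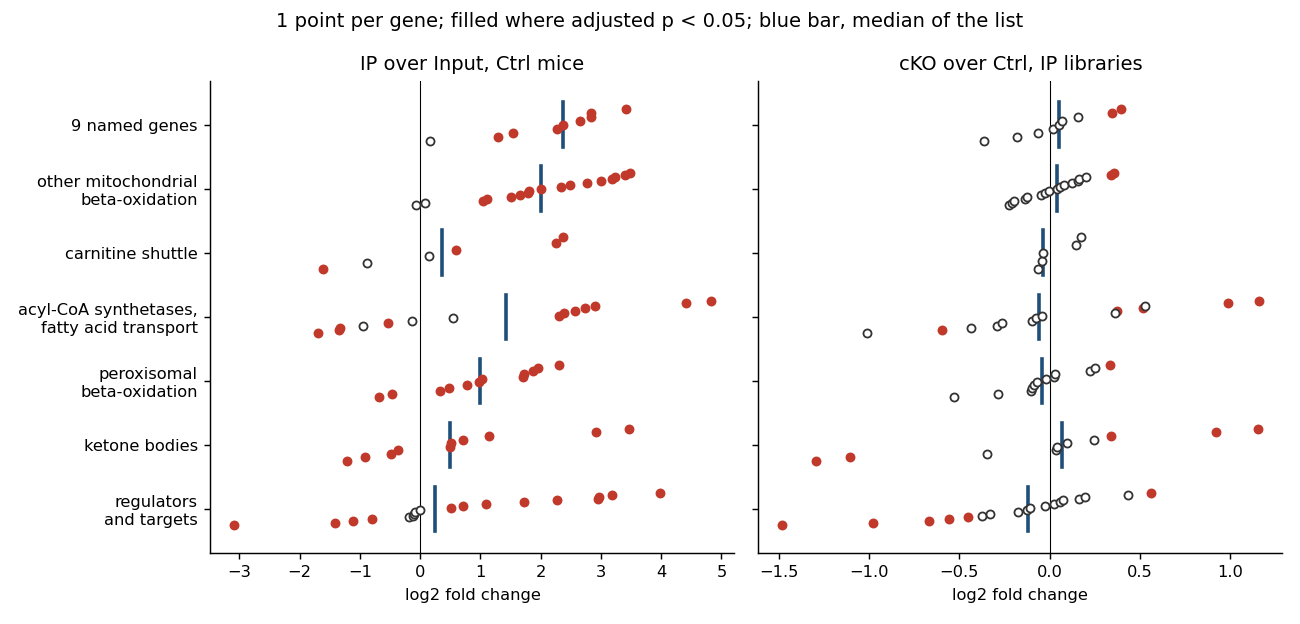
Log2 fold change of each gene (1 point per gene) of the 9 described here and of the 6 pathway lists, for IP over Input in Ctrl mice (left) and for cKO over Ctrl in the IP libraries (right), with filled points at an adjusted p under 0.05 and a bar at the list median. The mitochondrial enzymes lie to the right in the left panel, with a median of 2.00, and close to 0 in the right panel, with a median of 0.04.

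Across the 12 TRAP-Seq libraries the log2 CPM of 8 of the genes moved almost together, with Pearson's r between 0.902 and 0.992 for the 28 pairs among them, whereas the 8 pairs with Oxct1 had r between 0.608 and 0.757. These libraries share the step between IP and Input, and with each group centred on its own mean r ranged from -0.886 to 0.916 for the first set of pairs and from -0.449 to 0.238 for the second. Among the 18513 genes whose log2 CPM averaged 1 or more, the transcript most like Acadm over these libraries was Eci1 (r = 0.998), and that most like Acsbg1 was the acyl-CoA synthetase Acsf2 (r = 0.998). Acadl was most like S100b (r = 0.998), an astrocyte marker, Cpt1a most like Ezr (r = 0.997) and Hadhb most like Cdkn2c (r = 0.999). Cpt2 was most like Gm17206 (r = 0.997), Acadvl most like Scrn2 (r = 0.995), Hadha most like Nat8f6 (r = 0.991) and Oxct1 most like Hbs1l (r = 0.973).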

How the data were processed

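Bulk RNA was reverse-transcribed with oligo-dT primers, and TRAP-Seq RNA was purified on oligo-dT beads. The authors mapped reads to mm10 with STAR in Galaxy and deposited raw counts per Ensembl gene, unnormalised, in 1 table per experiment. The counting tool, strand setting, annotation and any filter are not given in the sources used here. For the bulk tables the age stands only in the table names. GENCODE release 21 for mouse (GRCm38) gave symbols, positions and exonic lengths for 53237 of the 53342 identifiers, and an identifier of the P24 table that is cut short kept the fits of both ages to shared identifiers. Sequences came from RefSeq (GRCm38.p6), in whose promoter table all 9 symbols matched. The members and the lists were chosen with earlier results of these data known.

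Each comparison was fitted over its own groups in R 4.3.3 with edgeR 4.0.16 (TMM factors, filterByExpr at its defaults of 10 counts, 15 in total and 70% of the group, quasi-likelihood test, two-sided), and p-values were adjusted by Benjamini–Hochberg over all genes tested, with 0.05 as the threshold. Standard errors (SE) of log2 fold changes are the estimates over √F. The scripts were tested on simulated data. Between genotypes, p-values measure the spread between mice, with 1 library per mouse and fraction. For IP over Input and the fraction interaction each mouse gave 2 libraries, which the main fits treated as independent. Over 36 pairs of replicate libraries chi-square per degree of freedom lay between 2.79 and 89.8, above counting error in each pair. Same-numbered P17 libraries of cKO and Ctrl mice correlated in their deviations from the group means in all 4 pairs (r between 0.179 and 0.420). Their numbers were therefore taken as pairs in the fit with the replicate block. In the other comparisons of genotypes at least 1 pair had r of 0.079 or less. IP and Input libraries of 1 number came from the same mouse. The main fits held no block in any comparison and so left these pairings out. Alternatives were RLE factors, library size alone, the likelihood ratio test, DESeq2 1.42.0, no filter, the replicate block, a single fit of all bulk or all TRAP-Seq libraries (not for the interactions), and leaving out each library. Named genes were the 9 members, for each list the 3 genes of smallest adjusted p in a comparison of 2 groups, the transcript most like each member, and genes that overlap a member, these last added after the files were seen. Some genes that this rule would name, the targeted gene among them, are not reported here. Aldoc and the ratio of Hadhb to Hadha were chosen after their values were seen.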

Additional observations from a re-analysis of the deposited data

How the results depend on the processing

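Of the fold changes of the 9 genes under all alternatives, 1035 kept their direction and side of the threshold, 22 passed it newly, 18 no longer passed it and 23 changed sign. The number of the 9 genes called between genotypes was 0 at P24 and became 1 with the likelihood ratio test, DESeq2 or no filter (0 to 1 over the fits without 1 library). At P17 it was 0 and became 1 with the likelihood ratio test and with the replicate block, and stayed at 0 without any 1 library. In the IP it was 2, both higher, and became 1 with library size alone, where Cpt1a was called lower and neither Hadhb nor Oxct1 passed, 0 with the single fit and 3 with no filter or the replicate block, where Cpt1a was called lower beside the other two (1 to 2 without 1 library), in the Input 0 and became 1 with the likelihood ratio test or the single fit and 2 with DESeq2 (0 to 1 without 1 library), and for the fraction interaction 0 and became 1 with the likelihood ratio test, DESeq2 or no filter (0 to 1 without 1 library). For IP over Input it was 8 in Ctrl and 9 in cKO mice and stayed within 1 of these. The causes were not tested.

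In the IP, scaling by library size gave -0.041 for Acadl, -0.10 for Acadm and -0.060 for Acadvl in place of positive values. Without 1 library, the log2 fold change in the IP ranged from -0.19 to 0.051 for Cpt2, from -0.034 to 0.10 for Acadm and from -0.086 to 0.15 for Acadvl, the age interaction from -0.032 to 0.14 for Cpt2, from -0.038 to 0.11 for Acsbg1 and from -0.13 to 0.013 for Acadvl, and the fraction interaction from -0.14 to 0.083 for Hadha.

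Over all genes, the numbers called with the likelihood ratio test, DESeq2 and no filter were 619, 598 and 618 at P24 (388 in the main settings), 61, 41 and 55 at P17 (20), 137, 127 and 112 in the Input (26), 52, 54 and 62 for the age interaction (11) and 219, 284 and 189 for the fraction interaction (15). The single fit called 1684 in the IP (4782) and 127 in the Input. Without P24 cKO mouse 1, 950 genes were called at P24 and 149 for the age interaction, and without Input cKO mouse 1, 112 in the Input and 432 for the fraction interaction, while leaving out any other library gave between 216 and 272 at P24, 11 and 19 at P17, 2633 and 4810 in the IP, 4 and 37 in the Input, 4 and 12 for the age interaction and 3 and 16 for the fraction interaction. Of the calls for the fraction interaction 10 were higher and 5 lower, and 5 and 5 with RLE factors or 5 and 7 with library size alone. The replicate block called 410 genes at P24, 6735 in the IP, 8 in the Input, 55 for the age interaction, 17332 for IP over Input in Ctrl and 12943 in cKO mice. At P24 and in the IP and Input the numbers were not taken as pairs, since r of same-numbered libraries fell to 0.037, 0.079 and -0.062, and 4 of 8, 6 of 6 and 3 of 6 libraries correlated best with their own number. Cpt1a was called lower in the IP with the block (edgeR adjusted p = 0.00844). Beside this and the calls given in the report for Acadvl at P17 and Oxct1 in cKO mice, the block changed no call of the 9 genes, and for the named genes of the lists it ended calls at P24, among them those of Acot1 and Acot2. With 3 counts at 0.110 to 0.339 CPM, all 9 genes lay above the floor of every library, with a lowest group mean of 3.93 CPM.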
